A study of Mus musculus with 12 samples.

Results

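The comparison concerns 3 mouse T-cell acute lymphoblastic leukemia (T-ALL) lines, named 240, 242 and 352, and asks how their messenger RNA differed from one line to the next. All 3 lines carry Akt2 and Dlx5 transgenes (Lck-Dlx5;Lck-MyrAkt2), in which the Lck promoter drives a homeobox gene and a membrane-bound, active form of the kinase Akt2 in developing T cells. Per the study, each line was grown from the thymic tumor of 1 mouse, so a line stands for 1 animal and no normal T cells were among the libraries compared. A control library of each line was sequenced beside one made after PKF118-310, a small molecule that blocks binding of β-catenin to Tcf proteins. These 2 libraries, each the sum of 2 lane files, served as the 2 libraries of a line, with treatment as a covariate. The sample titles number the 2 files as lanes, whereas a heatmap of the study names separate cultures of each condition. Counts of the 2 files differed by about sampling noise in lines 240 and 242 (chi-square per degree of freedom 0.981 to 1.02) and by more in line 352 (2.01 and 2.06), and they were summed in all lines, so no spread between cultures enters the errors. Genes of chromosomes X and Y were left out, which left 48352 of 52535 genes in 6 libraries from 12 lane files.

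T cells mature in the thymus through stages that are read from the T-cell receptor and its partners. The beta chain is assembled first, from a V, a D and a J segment joined in front of 1 of the constant segments Trbc1 and Trbc2, and the alpha chain follows once Cd4 and Cd8 are both on the surface. Notch1 drives early thymocyte growth and is a common oncogene of T-ALL, while Wnt signals act through β-catenin and the Tcf/Lef factors in the same cells. A tumor that grew from 1 cell carries the rearranged beta chain gene of that cell, so V segment usage is a customary mark of a clone.

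Sequences of the beta chain genes of chromosome 6 are shown because the lines differed in which of these segments they read. Trbc1 (chr6:41538218-41539881, mm10) and Trbc2 (chr6:41546730-41548352) are near copies, with 95.6% identity over 518 coding bases and 1 difference in the first 360. The next 120 coding bases, from GENCODE vM21 transcripts, hold 14 of their 23 differences, which are in capitals.
Trbc1: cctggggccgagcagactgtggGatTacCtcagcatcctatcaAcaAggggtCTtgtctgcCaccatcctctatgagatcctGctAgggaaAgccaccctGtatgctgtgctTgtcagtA
Trbc2: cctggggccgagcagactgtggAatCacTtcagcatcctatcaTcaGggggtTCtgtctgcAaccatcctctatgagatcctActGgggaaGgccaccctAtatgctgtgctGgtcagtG

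The last 60 coding bases of the leading beta V segment of each control library follow, with the last in-frame cysteine codon in capitals. Line 240 led with Trbv31 (chr6:41557691-41558452), line 242 with Trbv19 (chr6:41178375-41179048) and line 352 with Trbv1 (chr6:40891229-40891885).
Trbv31: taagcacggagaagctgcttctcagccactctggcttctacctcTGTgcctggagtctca
Trbv19: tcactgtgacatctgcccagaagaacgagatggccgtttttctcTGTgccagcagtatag
Trbv1: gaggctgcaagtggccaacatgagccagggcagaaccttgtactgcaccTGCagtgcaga

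The beta V segments separated the lines. In line 352, Trbv1 took 2370 of 2566 beta V counts in the control (92.4%, 95% Wilson interval 91.3 to 93.3) and 2234 of 2397 after PKF118-310 (93.2%, 92.1 to 94.1). Trbv19 took 1377 of 1494 in the control of line 242 (92.2%, 90.7 to 93.4) and 127 of 142 in its treated library (89.4%, 83.3 to 93.5). Line 240 had no such segment. Its most frequent, Trbv31, took 87 of 386 counts in the control (22.5%, 18.7 to 27.0) and 104 of 365 after treatment (28.5%, 24.1 to 33.3), and 21 and 19 of 35 segments had a count. Trbv5 took 15% and 12.6% there, and Trbv19 took 14% and 19.5%. These intervals cover counting error only, as reads carried no molecular identifiers. Beyond the shares, the levels differed: Trbv1 stood at 179.9 and 160.3 CPM (counts relative to the TMM-scaled total of tested genes) in line 352, at 2.57 and 2.28 in line 240 and at 0 in both libraries of line 242. On a floor of 3 counts over both libraries it was at least 202-fold higher in line 352 than in line 242 (adjusted p = 0.00689).

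**Figure D1:**
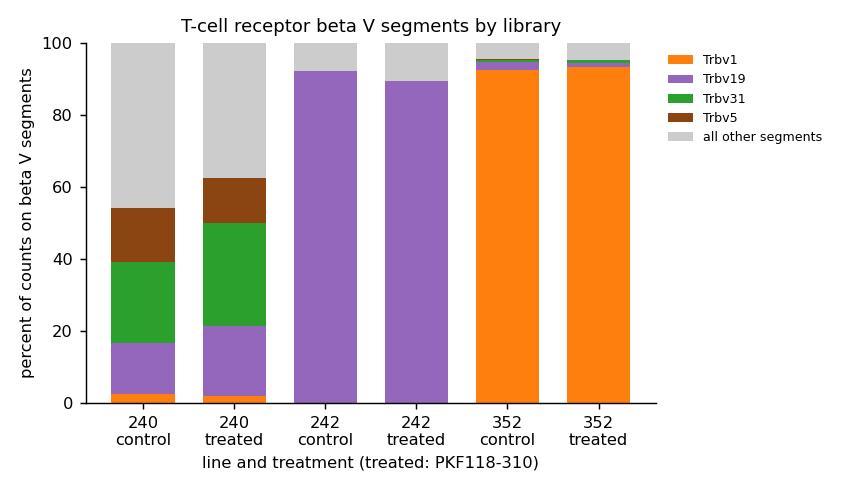
Share of the counts on T-cell receptor beta V segments (percent, y axis) taken by Trbv1, Trbv19, Trbv31, Trbv5 and all other segments in the 6 libraries (x axis). Trbv19 fills 92.2% and 89.4% of the bars of line 242 and Trbv1 92.4% and 93.2% of those of line 352, while the largest share in line 240 is 28.5%.

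The constant segments differed as well. Trbc1 was read 758 and 564 times in line 240 (194 and 184 CPM) and 256 and 26 times in line 242 (84.3 and 48.3 CPM), but 4 and 0 times in line 352. The difference was 10.18 ± 0.61 (SE) on the log2 scale between lines 240 and 352 (edgeR quasi-likelihood adjusted p = 0.0057) and 8.65 ± 0.62 between lines 242 and 352 (adjusted p = 0.00689). Trbc2 was present in every library, with 689 and 711 CPM in line 240, 550.0 and 279 CPM in line 242 and 326 and 291 CPM in line 352, and no pair of lines differed by the test. J segments gave few counts, but of those in line 352 all 410 and 375 fell on the Trbj2 cluster and 0 on Trbj1, whereas line 242 had 18 and 2 on Trbj1 and 11 and 1 on Trbj2. The counting of reads that match several places is not described, so the split of counts between Trbc1 and Trbc2 is uncertain in their shared first part. Alpha and delta V segments were close to silent (10 to 70 counts per library over 134 segments), and gamma V segments had 2 counts over the 6 libraries together. Trac, the alpha constant segment, was lower in line 352 (3.95 and 5.67 CPM) than in line 240 (17.2 and 19.2; adjusted p = 0.0402) or line 242 (28.0 and 33.5; adjusted p = 0.0197).

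Library depth and makeup set what could be seen. Counts outside chromosomes X and Y were 3889350 and 3055355 in line 240 (control, then treated), 3245986 and 587964 in line 242 and 12862315 and 13397530 in line 352, so line and depth cannot be told apart for line 352. A gene with 0 counts may still have had up to 0.215 CPM in the deepest library and up to 5.58 CPM in the treated library of line 242, the limit that 3 counts set. That library stood apart: 12.2% of its counts came from mitochondrially encoded genes, against 1.89% to 3.21% in the others, and 93.3% lay in tested genes, against 99.5% to 99.8%. The 2 libraries of a line also differ by drug treatment. P-values measure the spread left after line and a treatment effect shared by the lines are fitted, not the spread between animals. That spread includes any response to the drug that differs between lines.

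Of 10711 genes tested, 767 (7.16%) differed among the 3 lines (edgeR quasi-likelihood F test, Benjamini-Hochberg adjusted p under 0.05). Lines 240 and 242 gave the fewest calls of the pairs, with 30 genes higher in line 240 (0.28%) and 59 lower (0.551%). Line 240 against line 352 gave 231 higher (2.16%) and 315 lower (2.94%), and line 242 against line 352 gave 491 higher (4.58%) and 442 lower (4.13%). The split between lines 242 and 352 changed sides with scaling: of the calls, 52.6% were higher in line 242 with TMM, 42.3% with library totals, which moved the median of all genes from -0.0384 to -0.155, and 62.4% after a GC correction. All 89, 546 and 933 called genes kept their direction in the control libraries alone, and 89, 531 and 865 of them differed at least 2-fold there. The 2 libraries of one line lay above both of the other for 88, 545 and 928 of the called genes. The same libraries made the calls, so neither check is independent of them.

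The libraries of line 242 weighed on the spread of the fit. Leaving out its control raised the number of genes that differed among the 3 lines to 8180, and leaving out its treated library raised it to 6286. Without the treated library, lines 240 and 242 differed in 1140 genes higher (10.3%) and 1048 lower (9.43%) of 11110 tested, lines 240 and 352 in 2377 (21.4%) and 2720 (24.5%), and lines 242 and 352 in 2302 (20.7%) and 2657 (23.9%). The common dispersion, edgeR's measure of the spread left after line and treatment are fitted, fell from 0.0664 to 0.00899. Line 242 then rests on 1 library that is assumed to vary like the others. A gene that did not pass with all 6 libraries may therefore still differ between lines. The counts without that library are given in parentheses for most gene groups below, in the order higher, then lower.

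The libraries held T cells by their markers. All 12 defining markers (Cd3d, Cd3e, Cd3g, Cd247, Lck, Thy1, Cd4, Cd8a, Cd8b1, Trac, Trbc1 and Trbc2) reached 5 CPM in both libraries of lines 240 and 242, and 10 of 12 did in line 352, where Trbc1 and Trac fell short. Line 240 had a summed level of 5387 to 5857 CPM, line 242 of 3079 to 4974 and line 352 of 3456 to 3771. Of markers of other cells, 1 of 17 B-cell markers (Ighm) and 1 of 24 myeloid markers (Itgam) reached 5 CPM in both libraries of each line, at summed levels of 14.8 to 182 and 12.6 to 72.5 CPM. Of 34 genes of NK and innate-like cells, 1 or 2 did so, and of 19 of MHC class II and antigen-presenting cells, 0 to 3 (6.59 to 203 CPM). The 26 stromal, endothelial and epithelial markers summed to 1081 to 2058 CPM, mainly Thy1, which T cells share, and Vim, and 3, 3 and 4 of them reached 5 CPM in lines 240, 242 and 352. The 15 erythroid and megakaryocyte markers summed to 314 to 1202 CPM, highest in line 240 (at least 921 CPM), most of it Tfrc, the transferrin receptor of dividing cells, and 1 or 2 reached 5 CPM. Ighm was at 155 and 83.5 CPM in line 240, 56.3 and 33.5 in line 242 and 30.5 and 9.18 in line 352, higher in line 240 than in line 352 (adjusted p = 0.0156), and what part other cells have in that was not tested.

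Cd4 was lower in line 352, while the study's Cd4 and Cd8 staining covered lines 240 and 242. It was at 431 and 483 CPM in line 240 and at 637 and 405 CPM in line 242, but at 58.1 and 41.8 CPM in line 352, a log2 difference of 3.23 ± 0.30 from line 240 (adjusted p = 0.0117) and 3.38 ± 0.30 from line 242 (adjusted p = 0.01). Cd8a, at 631 and 458 CPM in line 352 against 909 and 1092 in line 240 and 703 and 403 in line 242, did not pass in any pair. Of 20 tested genes of the CD3 complex, coreceptors and T-cell surface, 1 was higher and 1 lower in line 240 than in line 352 (12 and 3 without the treated library of line 242). The lower one was Ly6d, a surface protein of early lymphoid cells, at 502 and 278 CPM in line 352, 3.34 and 1.63 in line 240 and 0.329 and 0 in line 242. Over this list, 20% differed among the 3 lines, against 7.16% of all genes.

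The genes with the largest differences were mostly on in one line and near 0 in another. Calb2 (calretinin, a calcium-binding protein; chr8:110137502-110168210) was at 879.9 and 1932 CPM in line 352, at 1.03 and 0.652 CPM in line 240 and at 0 in line 242, which makes it at least 1693-fold higher than in line 242 when 3 counts over both libraries of that line are the floor. The log2 difference between lines 240 and 352 was -10.53 ± 0.53 (adjusted p = 0.00596). Igfbpl1 (chr4:45809468-45826923), a member of the family that binds insulin-like growth factors, had 1888 and 1798 counts in line 352 and 0 in all 4 libraries of the other lines. On the same floor it was at least 316-fold higher than in line 240 and at least 162-fold higher than in line 242.

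Further genes of line 352 spanned several functions. Emp2, a membrane protein of epithelia, was at 103.9 and 117 CPM, Pck2, the mitochondrial form of a gluconeogenic enzyme, at 104 and 104 CPM, Rhobtb3 at 125 and 117 CPM and App, the amyloid precursor protein, at 89.1 and 106 CPM, with no library of the other lines above 3.72 CPM for any of them. Tshz2 and Nalcn, a zinc finger factor and a sodium leak channel, were at 58.7 and 60.5 CPM and at 43.3 and 44.2 CPM, against 0 to 1.86 CPM elsewhere. Each of these 6 was higher in line 352 than in both other lines (adjusted p from 0.0057 to 0.036). Each of the 767 genes was classed by the line furthest from the others, on the mean log2 level of its libraries. By that rule, 266 were classed as line 352 above the others and 184 as line 352 below. A gene highest in line 352 can thus be classed under another line.

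Tmem176a and Tmem176b are neighbours on opposite strands that both came on in line 352. Tmem176b, a membrane protein known from dendritic and T helper cells (chr6:48833818-48841496), was at 56.8 and 82.0 CPM there, with 1 count in all 4 libraries of lines 240 and 242 together. Against line 240, with its 1 count, the ratio was 486 (95% interval of a ratio of counts, 87.1 to 19196), and against line 242, at 0, it was at least 83.1-fold. Tmem176a, named here after its values were seen, was at 39.6 and 48.2 CPM in line 352 and at 0 to 1.30 CPM elsewhere. The promoter window of Tmem176a (RefSeq, GRCm38.p6, chr6:48841233-48841532, plus strand) is shown because it overlaps that of Tmem176b (chr6:48841325-48841624, minus strand), with the 208 shared bases in capitals.
Tmem176a promoter: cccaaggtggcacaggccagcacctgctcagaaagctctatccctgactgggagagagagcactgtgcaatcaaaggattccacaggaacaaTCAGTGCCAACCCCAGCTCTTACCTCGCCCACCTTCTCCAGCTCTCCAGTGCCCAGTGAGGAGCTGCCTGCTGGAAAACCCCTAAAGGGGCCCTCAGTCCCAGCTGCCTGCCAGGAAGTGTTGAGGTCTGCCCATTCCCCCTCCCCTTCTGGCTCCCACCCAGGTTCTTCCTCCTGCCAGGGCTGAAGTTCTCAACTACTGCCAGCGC

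Other genes were on in lines 240 and 242 and near 0 in line 352. Ccr9, the receptor that guides thymocytes to the chemokine Ccl25 (chr9:123678439-123784330), was at 60.8 and 265 CPM in line 240 and at 161 and 415 CPM in line 242, but at 0.379 and 1.15 CPM in line 352. Log2 differences were 7.59 ± 0.35 (adjusted p = 0.0055) and 8.62 ± 0.36 (adjusted p = 0.00374), and in each line the treated library was the higher one. Nebl, an actin-binding protein, was at 142 and 115 CPM in line 240, 367 and 212 CPM in line 242 and 0.911 and 0 CPM in line 352. Mitf, a transcription factor of pigment and mast cells, was at 58.0 and 39.4 CPM, 45.5 and 48.3 CPM and 0 and 0.287 CPM in the same order. Both genes were lower in line 352 than in each other line (adjusted p from 0.00832 to 0.0112). Fzd10, a Wnt receptor of the Frizzled family, was at 35.7 and 39.4 CPM in line 240, 22.4 and 9.30 CPM in line 242 and 0 in line 352, at least 337-fold and at least 185-fold higher than in line 352.

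Line 242 had its own set. Wwc1 (Kibra, a scaffold of the Hippo pathway; chr11:35838400-35980527) was at 267 and 158 CPM there, at 0.770 and 1.96 CPM in line 240 and at 0 in line 352, a log2 difference from line 240 of -7.32 ± 0.52 (adjusted p = 0.0283) and a level at least 2266-fold that of line 352. Cd200, a surface ligand that restrains myeloid cells (chr16:45382135-45409053), was at 289 and 100.4 CPM, against 0.513 and 1.96 CPM in line 240 and 0 and 0.0717 CPM in line 352. Cadm1, an adhesion molecule, was at 116 and 119 CPM and Prkaa2, a catalytic subunit of AMP-activated kinase, at 117 and 134 CPM, with at most 1.30 CPM in any library of the other lines. These 4 genes were higher in line 242 than in either other line.

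Several immune receptors and signalling proteins belonged to the same set. Syk, a kinase used by B-cell and pre-T-cell receptors, was at 87.6 and 44.6 CPM in line 242, 2.57 and 1.30 CPM in line 240 and 0 in line 352 (adjusted p = 0.0337 and 0.00689). Btla, an inhibitory receptor of lymphocytes, was at 140.3 and 85.5 CPM, against 0 and 0.978 CPM in line 240 and 0.607 and 1.15 CPM in line 352 (adjusted p = 0.0337 and 0.0118). Sirpa, the receptor of Cd47 on myeloid cells, was at 60.6 and 72.5 CPM and at no more than 0.326 CPM in the 4 other libraries (adjusted p = 0.0303 and 0.00910). Tanc2, a synaptic scaffold protein, fell into 3 levels, with 473 and 409 CPM in line 242, 38.7 and 34.6 in line 240 and 0.152 and 0.430 in line 352, and every pair differed (adjusted p = 0.0234, 0.0057 and 0.00374). In all, 131 genes were classed as line 242 above the others and 71 as line 242 below, by the rule given for line 352.

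Line 240 had the fewest genes classed under it by that rule, 38 above the other lines and 77 below. Crip1, a small zinc-binding protein of lymphocytes and gut (chr12:113146316-113153879), was at 184 and 102 CPM, with at most 0.329 CPM in any other library (adjusted p = 0.0234 and 0.0057). Ly6k (chr15:74796874-74799986), a surface protein known from testis and tumors, had 174 and 204 counts in line 240 and 0 in the 4 other libraries. It passed against line 352 (adjusted p = 0.0185), where it was at least 490.5-fold higher, but not against line 242 (adjusted p = 0.0716), of which the treated library held 587964 counts. Nnat, an imprinted gene, was at 100.3 and 51.2 CPM in line 240 and 3.29 and 0 CPM in line 242 (adjusted p = 0.0441). Adam12, a metalloprotease, was at 89.3 and 72.4 CPM against 2.63 and 3.72 CPM in line 242, and Spred1, an inhibitor of Ras signalling, at 69.3 and 52.8 against 2.31 and 3.72 CPM, with 0 to 0.228 CPM of both in line 352.

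Some genes were read in lines 242 and 352 only. Mpped2, Dsg2, a desmosomal cadherin, and Rnf144a, a ubiquitin ligase, had 0 counts in both libraries of line 240. Mpped2 was at 38.9 and 46.5 CPM in line 242 and 31.3 and 29.6 in line 352, at least 92.9-fold and at least 70.7-fold higher. Inhbb, a subunit of activin and inhibin, had 1 count in line 240 and was at 65.5 and 66.9 CPM in line 242 and 55.3 and 33.1 CPM in line 352 (adjusted p = 0.0234 and 0.00925). Between lines 242 and 352 neither gene passed (adjusted p = 0.309 for Inhbb and 0.358 for Mpped2), although line 242 had the higher libraries for both.

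**Figure D2:**
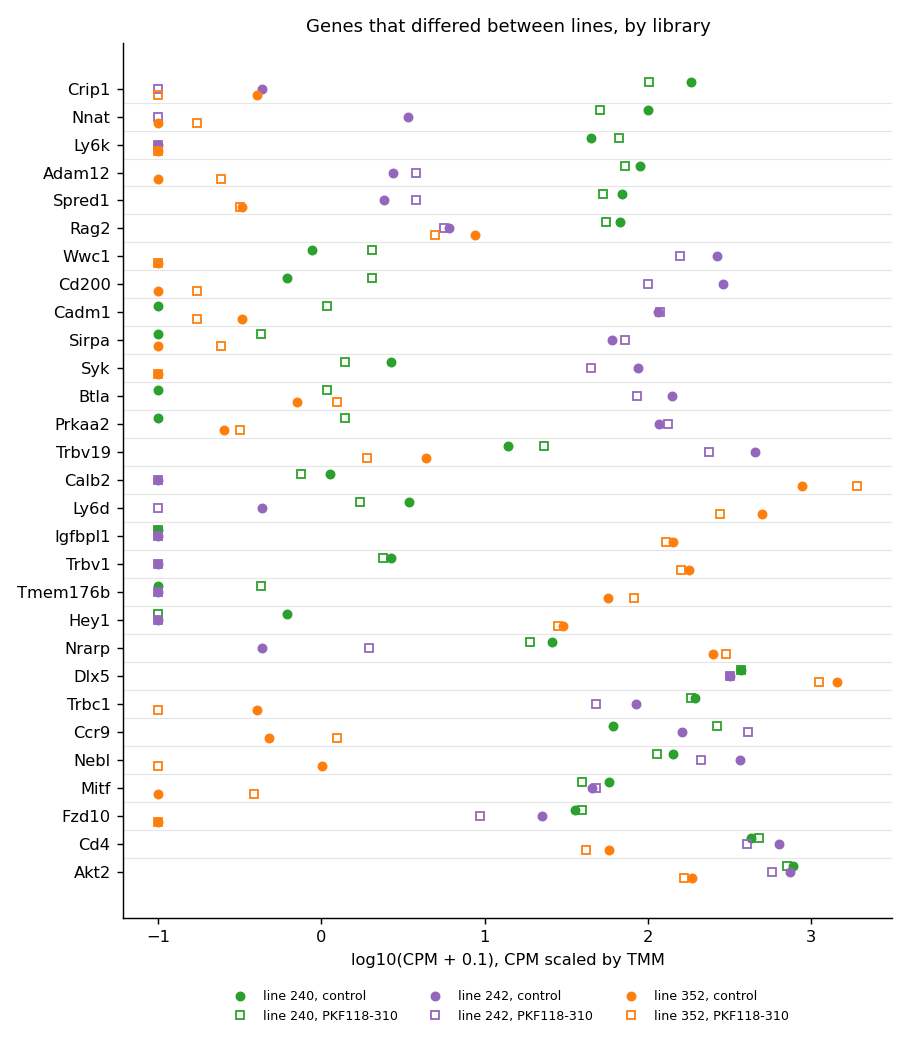
Level of 29 genes in each library, as log10 of CPM + 0.1 (x axis), with filled circles for controls and open squares for PKF118-310 and a colour for each line. Many were named for a difference between lines without overlap, among them Calb2, at 879.9 and 1932 CPM in line 352 and at most 1.03 CPM elsewhere.

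The transgene genes were not at equal levels. Dlx5 (chr6:6877805-6882085) was at 372 and 373 CPM in line 240, at 318 and 318 CPM in line 242 and at 1451 and 1126 CPM in line 352, with log2 differences from line 352 of -1.78 ± 0.25 for line 240 (adjusted p = 0.027) and -2.01 ± 0.25 for line 242 (adjusted p = 0.0196). Akt2 (chr7:27591552-27640826) went the other way, with 777 and 716 CPM in line 240, 747 and 578 in line 242 and 188 and 166 in line 352 (log2 differences 2.08 ± 0.23 and 1.90 ± 0.23, adjusted p = 0.0164 and 0.0186). Counts of a gene do not separate its transgene from the mouse's own copy. Dlx2, another homeobox gene of the family, was at 56.7 and 44.8 CPM in line 352 and at 0.329 to 2.05 CPM in the other lines (adjusted p = 0.0149 and 0.0175). Dlx1, at 48.3 to 121 CPM in all libraries, did not pass in any pair.

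Notch pathway genes that passed against line 352 were higher in that line. Over the list, 27.3% differed among the 3 lines, against 7.16% of all genes. Of 22 tested genes of the pathway and its targets, 0 were higher and 7 lower in line 242 than in line 352, 0 and 3 in line 240 than in line 352, and 2 and 0 in line 240 than in line 242 (4 and 11, 2 and 11, and 6 and 2 without the treated library of line 242). The list medians were -0.90, -0.38 and -0.01 on the log2 scale, against -0.04, -0.02 and 0.01 over all tested genes. Nrarp, a feedback inhibitor of Notch (chr2:25180758-25183339), was at 251 and 299.9 CPM in line 352, 25.9 and 18.9 in line 240 and 0.329 and 1.86 in line 242, and every pair differed (adjusted p from 0.006 to 0.0445). Dtx1, a ubiquitin ligase and Notch target, followed the same order, with 552 and 472, 223 and 193, and 34.3 and 11.2 CPM. The step between lines 352 and 240 did not pass for Dtx1 (adjusted p = 0.0849).

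Receptors and other targets followed in part. Notch1 was at 1999 and 1644 CPM in line 352, 1276 and 1304 CPM in line 240 and 595 and 273 CPM in line 242, and passed between lines 242 and 352 (log2 difference -2.12 ± 0.38, adjusted p = 0.0374). Notch3 was at 609 and 536, 320 and 371, and 199 and 149 CPM in the same order, again past the threshold between lines 242 and 352 (adjusted p = 0.0268). Hey1 (chr3:8663359-8667256), a repressor switched on by Notch, was at 30.1 and 28.0 CPM in line 352, with 2 and 0 counts in line 240 and 0 in line 242 (adjusted p = 0.0323 and 0.034). Maml3, a Notch coactivator, was at 20.9 and 22.96 CPM in line 352 and at 0.257 to 2.31 CPM in the others. Outside that list, Ptcra, the pre-T-cell receptor alpha chain and a Notch target in thymocytes, was at 166 and 99.1, 97.7 and 136, and 18.1 and 0 CPM in lines 352, 240 and 242, and passed between lines 242 and 352 (adjusted p = 0.0488).

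Of 12 tested Wnt feedback genes, 3 differed among the 3 lines (25%, against 7.16% of all genes). Of the 12, 0 were higher and 1 lower in line 240 than in line 242, 0 and 2 in line 240 than in line 352, and 1 and 0 in line 242 than in line 352 (1 and 8, 3 and 5, and 7 and 2 without the treated library of line 242). With genes that were at 0 in one line set to their bound, the median difference of line 240 from line 242 was -0.59, and -1.14 as fitted. Apcdd1, a Wnt inhibitor, was at 128 and 91.1 CPM in line 242, 30.8 and 40.7 in line 352 and 5.39 and 2.61 in line 240, and passed between lines 240 and 242 (adjusted p = 0.0246) and 240 and 352 (adjusted p = 0.0227). Nkd1, an inhibitor of Dishevelled, had 0 counts in line 240 and was at 25.7 and 5.58 CPM in line 242 and 79.7 and 129.7 CPM in line 352, past the threshold between lines 240 and 352 (adjusted p = 0.0262). Axin2, a widely used reporter of Wnt activity, was at 64.6 and 48.3 CPM in line 242, 19.2 and 24.4 in line 240 and 31.0 and 24.96 in line 352 and did not pass in any pair (adjusted p from 0.0768 to 0.505).

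Among Wnt components, 0 of 29 tested genes passed between lines 240 and 242, 0 were higher and 1 lower in line 240 than in line 352, and 2 were higher and 3 lower in line 242 than in line 352 (2 and 3, 5 and 13, and 9 and 12 without the treated library of line 242). Ror2, a receptor of noncanonical Wnt ligands, was at 12.3 and 14.02 CPM in line 240 and 66.9 and 74.8 CPM in line 352 (adjusted p = 0.0149). Ctnnb1, which encodes β-catenin, was at 525 to 740 CPM in the 6 libraries and Lef1 at 205 to 545, and neither passed in any pair. The Ctnnb1 levels of the 3 lines overlapped. Among the tested Wnt components, 13.8% differed among the 3 lines, against 7.16% of all genes.

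Most T-cell receptor signalling genes that passed against line 352 were lower in that line. Over this list, 28% differed among the 3 lines, against 7.16% of all genes. Of 25 tested signalling genes, 4 were higher and 0 lower in line 240 than in line 352, and 5 and 1 in line 242 than in line 352 (18 and 3, and 13 and 4 without the treated library of line 242), with medians of 0.62 and 0.68 against -0.02 and -0.04 over all genes. Rasgrp1, which activates Ras downstream of the receptor, was at 125 and 80.5, 103 and 40.9, and 36.6 and 18.4 CPM in lines 240, 242 and 352 (adjusted p = 0.0185 and 0.036). Cblb, a ubiquitin ligase that dampens the receptor, was higher in line 242, at 160.1 and 162 CPM, than in line 240 (57.0 and 48.6; adjusted p = 0.0448) or line 352 (66.2 and 70.7; adjusted p = 0.0289).

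Of 39 tested cytokine receptor, Jak, Stat and Socs genes, 5 were higher and 1 lower in line 240 than in line 352, 8 and 2 in line 242 than in line 352, and 0 passed between lines 240 and 242 (23 and 5, 15 and 7, and 12 and 5 without the treated library of line 242). Il21r was at 87.7 and 85.4 CPM in line 240, 32.6 and 14.9 in line 242 and 1.75 and 0.646 in line 352 (adjusted p = 0.0057 and 0.0147 against line 352). Ifngr1, an interferon-γ receptor chain, was at 555 and 398, 1190 and 814, and 189 and 90.8 CPM (adjusted p = 0.0284 and 0.0118). Both genes had every library of line 352 below those of the other lines. Of the whole list, 30.8% differed among the 3 lines, against 7.16% of all tested genes. Ifngr1 lies on chromosome 10, which was lower in line 352 as a whole.

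A few thymocyte factors passed, and 12% of those tested differed among the 3 lines, against 7.16% of all genes. Of 25 tested lineage factors, 2 were higher and 2 lower in line 240 than in line 352 and 2 and 1 in line 242 than in line 352 (8 and 11, and 7 and 9 without the treated library of line 242). Themis, on chromosome 10 and needed for positive selection, was at 1076 and 838, 833 and 615, and 304 and 207 CPM in lines 240, 242 and 352 (adjusted p = 0.0203 and 0.029). Id3, an inhibitor of E proteins, was higher in line 352 (58.7 and 106 CPM) than in line 240 (13.9 and 8.48; adjusted p = 0.0296). Rag2, a subunit of the V(D)J recombinase, was higher in line 240 than in both others, at 67.7 and 55.1 CPM against 5.93 and 5.58 in line 242 (adjusted p = 0.0337) and 8.65 and 4.88 in line 352 (adjusted p = 0.0116).

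Interferon-stimulated genes moved both ways, and 14.6% of those tested differed among the 3 lines, against 7.16% of all genes. Of 41 tested interferon-stimulated genes, 6 were higher and 1 lower in line 240 than in line 352 and 2 and 3 in line 242 than in line 352. Samd9l was lower in line 352, at 9.03 and 11.2 CPM against 42.8 to 72.5 CPM elsewhere, and Gbp4, a guanylate-binding protein, was higher there. Gbp4 was at 74.6 and 254 CPM in line 352, 23.3 and 64.5 in line 240 and 30.6 and 81.8 in line 242, so its treated library was above the control in each line and the line order held within each treatment. Without the treated library of line 242 the balance against line 352 changed, to 8 higher and 13 lower in line 240 and 3 and 17 in line 242, and line 240 had 15 higher and 0 lower than line 242, from 1 and 0. Of 24 tested MHC class I genes, 2 were higher and 1 lower in line 240 than in line 352 and 2 and 4 in line 242 than in line 352 (7 and 7, and 3 and 12 without the treated library of line 242). H2-Q1 was at 78.0 and 74.0 CPM in line 240, 323 and 66.9 in line 242 and 0.683 and 0.574 in line 352, and H2-Q2 at 17.2 and 12.7, 155 and 50.2, and 162 and 83.5 CPM. These class I genes are near copies and differ between mouse strains, so counts of single members are uncertain. Among the tested MHC class I genes, 25% differed among the 3 lines.

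Of 21 tested genes of the p53 pathway, 0 were higher and 1 lower in line 240 than in line 352, and 1 and 2 in line 242 than in line 352 (6 and 9, and 4 and 9 without the treated library of line 242). The gene lower in both was Gadd45a, a growth arrest gene, at 340 and 633 CPM in line 352, 8.98 and 11.7 in line 240 and 9.88 and 52.1 in line 242 (adjusted p = 0.0116 and 0.0174). Over the p53 list, 9.52% differed among the 3 lines, near the 7.16% of all genes. Bcl2l2, a survival gene, was at 50.7 and 49.7 CPM in line 352 and 0 to 3.08 CPM elsewhere. Of 20 mitosis genes, 0 passed in any pair (edgeR). Their median for line 240 minus line 352 was 0.335 on the log2 scale, against -0.0158 over all tested genes. Myc, at 151 to 437 CPM, and Ccnd1, at 63.6 to 267 CPM, did not pass in any pair. Etv6, a factor rearranged in leukemia, was at 219 and 184 CPM in line 352 and 45.0 to 56.4 in the others (adjusted p = 0.0146 and 0.0164).

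Of 29 tested glycolysis and hypoxia genes, 0 passed between lines 240 and 242 and 1 was higher in line 240 than in line 352 with all libraries. The list median for line 240 minus line 242 was 0.72 on the log2 scale, against 0.01 over all tested genes. In the controls alone the median difference of line 240 from line 242 was 1.54 on the log2 scale, and that of line 242 from line 352 was -0.99. The list summed to 25640 CPM in the control of line 240 and 9801 in that of line 242. The treated libraries were close, at 16800 and 16630 CPM, so the difference was seen in the controls only. Among the 3 lines, 3.45% of this list and 4% of the cholesterol list below differed, against 7.16% of all genes. Pgam1, a glycolytic mutase and the gene that passed between lines 240 and 352 (adjusted p = 0.0204), was at 470.3 and 320 CPM in line 240, 197 and 159.9 CPM in line 242 and 154 and 109 CPM in line 352. Of 25 cholesterol synthesis genes, 1 was higher in line 240 than in line 352 and 1 lower in line 242 than in line 352 (8 and 6, and 13 and 6 without the treated library of line 242). Lss, on chromosome 10 and at 158 and 71.7 CPM in line 240, 99.8 and 39.0 in line 242 and 85.0 and 32.6 in line 352, was the first of these (adjusted p = 0.0452).

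Imprinted genes are read from 1 parental copy in at least some tissues, and which copies were read in these lines was not tested. Of 21 tested imprinted genes, 4 were higher and 2 lower in line 240 than in line 352 and 5 and 0 in line 242 than in line 352. Ddc was at 17.2 and 19.6 CPM in line 240, 26.3 and 59.5 in line 242 and 0.304 and 0.215 in line 352 (adjusted p = 0.0121 and 0.00899). Gnas, which encodes a G protein subunit, was lower in line 240, at 203 and 179.6 CPM, than in line 352, at 656 and 528 CPM (adjusted p = 0.0248). Tet1, an enzyme that oxidizes methylcytosine, was at 72.9 and 41.1 CPM in line 240, 25.4 and 65.1 in line 242 and 0.911 and 1.94 in line 352 (adjusted p = 0.0208 and 0.0243). Tet1 lies on chromosome 10. In the test over the 3 lines, 28.6% of the imprinted genes and 13.3% of the chromatin regulators below differed, against 7.16% of all genes. By pair, 2.16% of all genes were higher and 2.94% lower in line 240 than in line 352. Between lines 242 and 352 these shares were 4.58% and 4.13%. Of 30 tested chromatin regulators, 1 was higher and 1 lower in line 240 than in line 352 and 2 and 3 in line 242 than in line 352 (8 and 10, and 8 and 9 without the treated library of line 242).

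Differences between lines moved with the GC content of transcripts. Over 10 classes of GC content, outside chromosomes 10 and 15, the median log2 difference of line 240 from line 352 ran from 0.23 in the lowest class to -0.55 in the highest, and that of line 242 from line 352 from 0.34 to -0.77. Between lines 240 and 242 it ran from -0.13 to 0.14. Libraries of line 352 were thus richer in GC-rich transcripts, and line and library preparation cannot be told apart. After a correction of each library for GC class, made with chromosomes 10 and 15 included, 616 genes differed among the 3 lines, 575 of them among the 767.

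**Figure D3:**
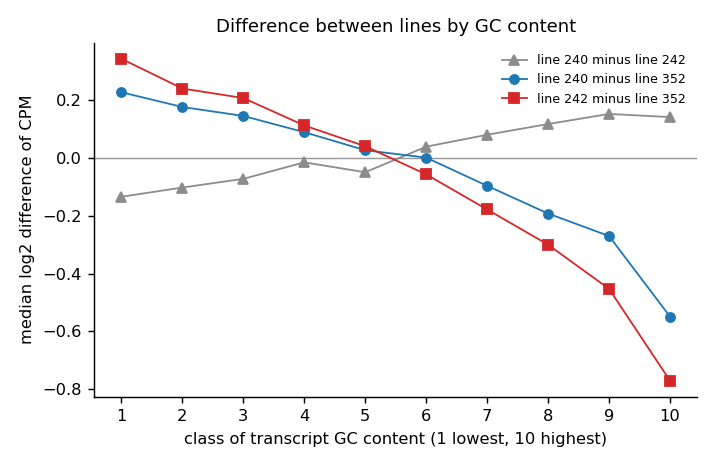
Median log2 difference of CPM between lines (y axis) in 10 classes of tested genes by the GC content of their longest transcript (x axis, class 1 lowest), outside chromosomes 10 and 15, with a line for each pair. Both differences from line 352 fall steadily, to -0.55 and -0.77, while lines 240 and 242 differ by -0.13 to 0.15.

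Chromosomes 15 and 10 stood apart in line 352. Over 420 tested genes of chromosome 15, the median log2 difference was -0.67 for line 240 minus line 352 and -0.75 for line 242 minus line 352, and 86.4% and 79.8% of its genes were higher in line 352. Over 541 tested genes of chromosome 10 the medians were 0.50 and 0.51, and 27.2% and 25.5% were higher in line 352. The other 17 autosomes had medians from -0.17 to 0.14 and from -0.30 to 0.22. Between lines 240 and 242 the medians were 0.08 for chromosome 15 and -0.06 for chromosome 10. Genes are not replicates, so no test was made, but control and treated libraries can be set side by side. For chromosome 15 they gave -0.68 and -0.66 against line 240 and -0.70 and -0.81 against line 242, and for chromosome 10 they gave 0.45 and 0.49 against line 240 and 0.46 and 0.595 against line 242.

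**Figure D4:**
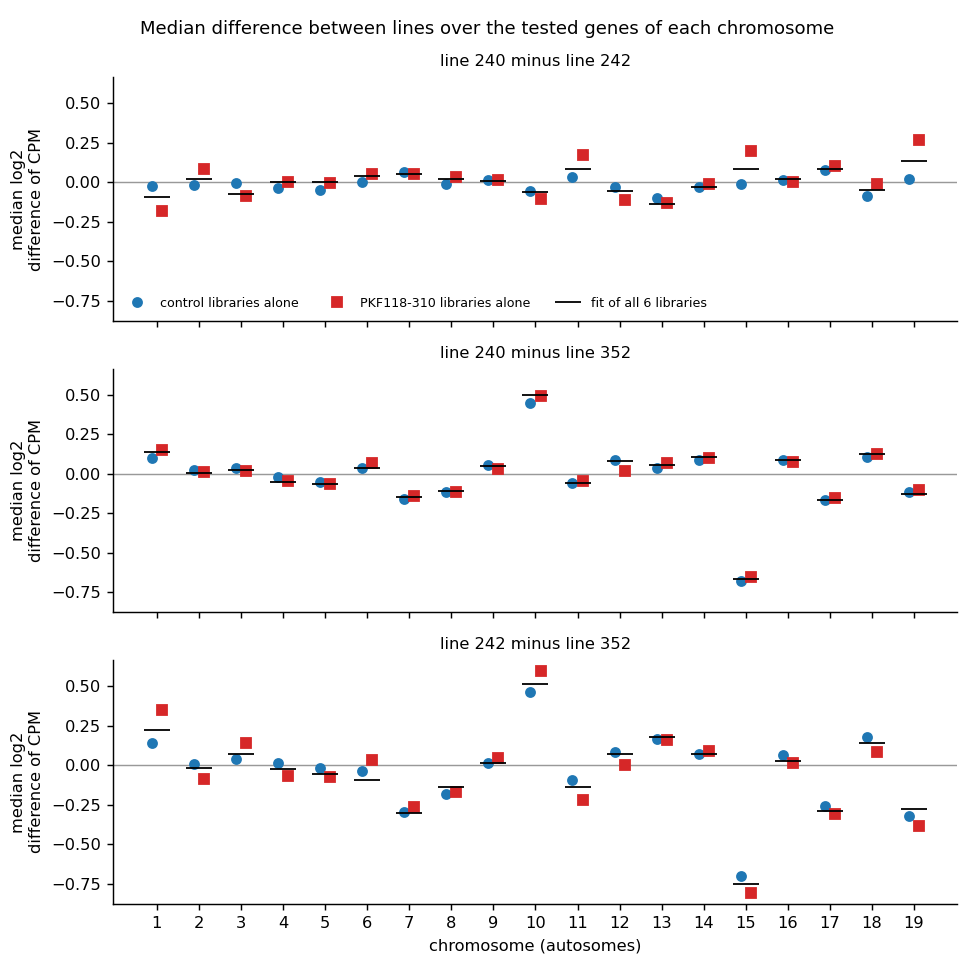
Median log2 difference of CPM between lines over the tested genes of each autosome, in control libraries alone (circles), in PKF118-310 libraries alone (squares) and in the fit of all 6 libraries (dashes). Chromosome 15 lies at -0.67 and -0.75 and chromosome 10 at 0.50 and 0.51 in the comparisons with line 352.

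Both chromosomes were displaced along their length. In 8 runs of at least 50 consecutive tested genes on chromosome 15, the median was between -1.03 and -0.49 for line 240 minus line 352 and between -1.17 and -0.42 for line 242 minus line 352. On chromosome 10, 8 of 10 runs were at 0.43 or above in both comparisons, while the sixth and seventh, which span 79669369 to 82742428 (mm10), lay between -0.20 and 0.18. Single runs of the other autosomes went from -0.69 to 0.38 in the first comparison and from -0.83 to 0.49 in the second, before GC correction. For a GC correction, runs of 50 were formed anew from genes with a GC value, without the remainder at each chromosome's end. They therefore differ from the runs above. The 10 runs of chromosome 10 were then at 0.26 to 0.60 and 0.36 to 0.76, and the 8 of chromosome 15 at -0.71 to -0.37 and -0.73 to -0.40. Chromosome medians over all genes with a GC value were 0.47 and 0.59 for chromosome 10, and -0.62 and -0.58 for chromosome 15. The other autosomes then had medians from -0.06 to 0.06 and from -0.13 to 0.11, though single runs of theirs reached -0.30 and 0.67 in the first comparison and -0.50 and 0.50 in the second. This correction subtracted from each GC class its median outside chromosomes 10 and 15. It therefore centred the other autosomes as a set near 0 by design.

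**Figure D5:**
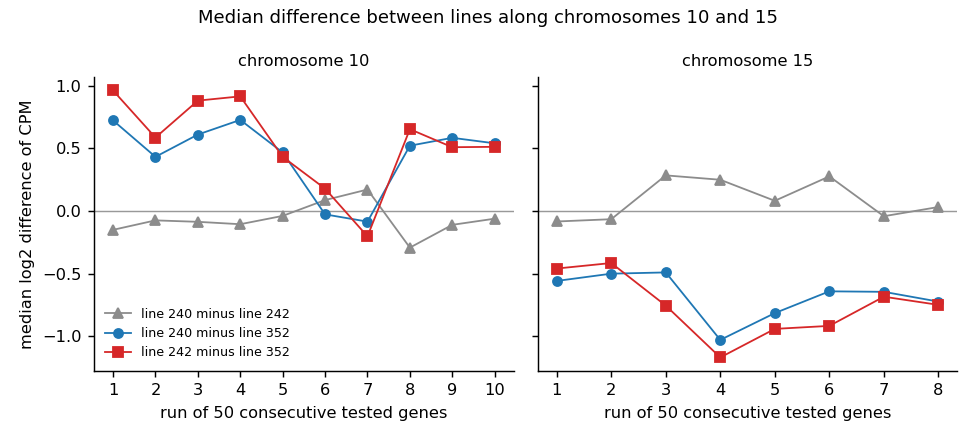
Median log2 difference of CPM between lines (y axis) in runs of 50 consecutive tested genes (x axis, in order along the chromosome; the last run also holds the remainder) on chromosomes 10 and 15, uncorrected for GC content. All 8 runs of chromosome 15 are at -0.42 or lower in both comparisons with line 352, and runs 6 and 7 of chromosome 10 are near 0.

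The same chromosomes were unevenly represented among single genes. Of the 266 genes classed as line 352 above the others, 39 (14.7%) lay on chromosome 15 and 9 (3.38%) on chromosome 10. Chromosome 15 held 3.92% of the tested genes. Of the 184 classed as line 352 below, 36 (19.6%) lay on chromosome 10 and 5 (2.72%) on chromosome 15. Chromosome 10 held 5.05% of the tested genes. Classes of line 242 were uneven too. Of 131 genes classed as line 242 above, 13 (9.92%) lay on chromosome 10 and 2 (1.53%) on chromosome 15. Of 71 classed as line 242 below, 7 (9.86%) lay on chromosome 15 and 0 on chromosome 10. Line 240 had 3 of 38 above and 4 of 77 below on chromosome 15, and 1 of each class on chromosome 10. Ly6d, described above, is one of the 39, with a log2 difference of -7.29 ± 0.26 between lines 240 and 352. Myc, also on chromosome 15 and not past the threshold, was at 410.1 and 437 CPM in line 352, 247 and 247 in line 240 and 371 and 151 in line 242. Hdac7, a histone deacetylase of thymocytes on that chromosome, was at 642 and 458 CPM in line 352, 281 and 256 in line 240 and 178 and 119 in line 242, and passed between lines 242 and 352 (adjusted p = 0.0186). On chromosome 10, Cdk2, a cell cycle kinase, was at 97.7 and 90.7 CPM in line 352 and 210.1 to 334 CPM in the others (adjusted p = 0.0378 and 0.0331).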

How the data were processed

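The authors deposited raw counts per gene in 12 lane files, 2 for each of 6 libraries made with a stranded mRNA kit. HISAT2, HTSeq, edgeR and the mm10 build are listed in the notes of the submitters, while TopHat is the aligner in the study's methods; their versions were not given in the sources used here. How reads with several matches were counted is not stated, so near copies (Trbc1 and Trbc2, H2, ribosomal protein and mitochondrial genes) are uncertain. Lane counts were summed. After removal of X and Y genes and edgeR's low-count filter, 10711 genes with 99.56% of the counts were tested by edgeR 4.0.16 (R 4.3.3) quasi-likelihood F tests, with TMM scaling, line as factor and treatment as covariate (2 residual degrees of freedom), and Benjamini-Hochberg adjusted p under 0.05. Each contrast was checked in the control libraries alone. A gene with 0 counts in a line is given a bound from 3 counts over its 2 libraries. Gene names and coordinates are those deposited with the counts (mm10), while transcript sequences are from GENCODE vM21 and promoter windows from RefSeq.

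Named genes were up to 12 per direction and comparison with the largest difference among those that passed, did not overlap between lines and averaged at least 5 CPM in the higher line, up to 4 per gene list with the smallest p over the 3 lines, the genes of the study's model and the leading V segments. The members and lists were chosen with earlier results of these data known. Alternatives were other scalings, filters, tools (DESeq2 1.42.0, limma 3.58.1 voom), lanes, fits and each library left out. Separate GC corrections for the calls and for the chromosome medians were added after seeing the data. So were thinning of line 352 and chromosome medians without the treated library of line 242.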

Additional observations from a re-analysis of the deposited data

How the results depend on the processing

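With 2 libraries a line, the counts of calls depended on the method far more than the directions did. The counts among the 3 lines (767), lines 240 and 242 (89), 240 and 352 (546) and 242 and 352 (933) became 1786, 432, 1224 and 1700 with DESeq2, 3225, 808, 2131 and 2841 with the edgeR likelihood ratio test, 2902, 749, 1701 and 2533 with no filter on low counts, and 4774, 301, 4400 and 1489 with limma voom and sample weights. Without the treatment covariate, the first 2 became 1160 and 154. Lane 1 alone gave 135 and 852 for the comparisons of line 240 with lines 242 and 352, and fits of only the 4 libraries compared gave 193 and 5049. Leaving out 1 library gave 895 to 8180, 238 to 4585, 480 to 5339 and 627 to 6005, each highest without the control of line 242. Without the treated library of line 242 the counts were 6286, 2188, 5097 and 4959. Thinning each library of line 352 to 3000000 counts, still above the treated library of line 242, gave 804, 129, 513 and 880, and the GC correction 616, 89, 478 and 681. Among 246 results of named genes, 13 fell short of the threshold with DESeq2, 4 with library totals and up to 55 when a library was left out (without the control of line 352). The single reversal was in Nnat, line 242 minus line 352, which ran from -1.08 without the control of line 242 to 6.78 without the treated library of line 352. The median of chromosome 10 for line 240 minus line 352 was 0.45 in controls alone and 0.459 with library totals, and that of chromosome 15 was -0.708 with library totals and -0.616 with the GC correction. For line 242 minus line 352 they were 0.398 with library totals on chromosome 10, and -0.87 with library totals and -0.576 with the GC correction on chromosome 15. The cause of these shifts was not tested. The treatment covariate already sets control against control and treated against treated, and no further replicate block was fitted.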
